A study of Rattus norvegicus with 6 samples.

Results

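The kidney makes ammonia and glucose from glutamine. In the renal cortex of rats given chlorothalonil, 8 genes of glutamine uptake and synthesis, ammonia release and glucose making were followed. They were chosen by name: Slc38a3, Glud1, Glul, Pc, Pck1, Pck2, Fbp1 and G6pc1, on each array probe whose accession is a RefSeq transcript of 1 of them. These were 17 of the 61537 probes other than controls, and 8 of the 15639 gene symbols that the probes matched. All 17 probes were well above background on all 6 arrays, so no member was lost to the filter on dim probes.

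The tissue was renal cortex, the outer kidney that holds the glomeruli and most proximal tubules, from male Sprague-Dawley rats purchased at 5 weeks of age. In the chlorothalonil group, 3 animals were dosed for 4 weeks with this chlorinated fungicide, at 500 mg/kg/day. In the corn oil group, 3 animals were given the oil vehicle over the same 4 weeks. Total RNA of each animal was hybridised to 1 Agilent 1-colour oligonucleotide array, so n = 3 in each group throughout.

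Proximal tubule cells take up glutamine and strip its nitrogen in the mitochondria. The nitrogen leaves as ammonium, which carries acid into the urine, and the carbon skeleton leaves the citric acid cycle through phosphoenolpyruvate and becomes glucose. In acidosis the cells raise both outputs, and Slc38a3 and Pck1 are textbook genes of that response. Glutamine synthetase runs the opposite way and spends ammonia to make glutamine.

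The 3 chlorothalonil arrays lay on 1 slide and the 3 corn oil arrays on another, scanned on different days, so slide and treatment cannot be told apart in any value below. The source name of chlorothalonil replicate 3 states ethylenediamine dihydrochloride, whereas its title, treatment and dose labels state chlorothalonil. This replicate was kept in its group, and called members, called genes of the related lists and called markers are also read without it. Corn oil replicate 1 was the lowest of all 6 arrays for 6 of the 7 markers of the S3 segment, the last stretch of the proximal tubule. It was lower by little for some, and it was the highest for Acy3. Its summed S3 level of 506 lay within that of its group, but that sum was mostly Acy3 (273) and Slc3a1 (226). The sum therefore says little about the other S3 markers. Values without corn oil replicate 1 are given beside the results of Slc38a3, Glud1, Pc, Pck1 and G6pc1 and of some other genes. The S3 gene Slc7a13, an amino acid transporter singled out after its values were seen, had a level of 29.3, 31.6 and 78.7 in the chlorothalonil cortices, against 5.12 in corn oil replicate 1 and 42.3 and 52.5 in the other corn oil cortices. A level is the processed spot signal as a multiple of the 75th percentile of its own array, and probes differ in brightness for reasons other than RNA amount, so levels are compared between samples and not between genes. Between 66.6% and 67.8% of probes were well above background on the chlorothalonil arrays and between 62.1% and 66.8% on the corn oil arrays, and no probe was saturated. All 19 listed proximal tubule markers were measured, with a summed level of 2775 to 2914 in the chlorothalonil and 2413 to 2673 in the corn oil cortices. That sum was mostly the brightest markers, such as Miox and Slc13a3, and bright features as a class were slightly higher with chlorothalonil (below). By mean log2 level, 12 of the 19 were above corn oil and 7 below. No other kidney region was on the arrays, so these values do not test the cortex label.

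Of the 8 genes, the glutamine carrier Slc38a3 and pyruvate carboxylase Pc were higher with chlorothalonil, by 2.45-fold and 1.40-fold. None was lower, and the other 6 genes, among them Pck1, did not pass the test. Each gene was read on its brightest probe and tested with limma at a Benjamini-Hochberg adjusted p of 0.05 over all 31104 features, where a feature is a gene or a probe that matched none. Over all features 980 passed, which is 3.15%, and 400 were higher, which is 1.29%. Among features with a gene symbol 255 of 11920 passed, or 2.14%. Differences are log2, chlorothalonil minus corn oil, and their median was 0.23 over the 8 genes, 0.0041 over all features and 0.024 over features with a symbol. With 6 of 8 genes above 0, the 2 below 0 were Glud1 and Glul. The groups did not overlap for 5 genes (Slc38a3, Pc, Fbp1 and G6pc1 above, Glud1 below), a separation that 27.6% of all features showed.

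**Figure D1:**
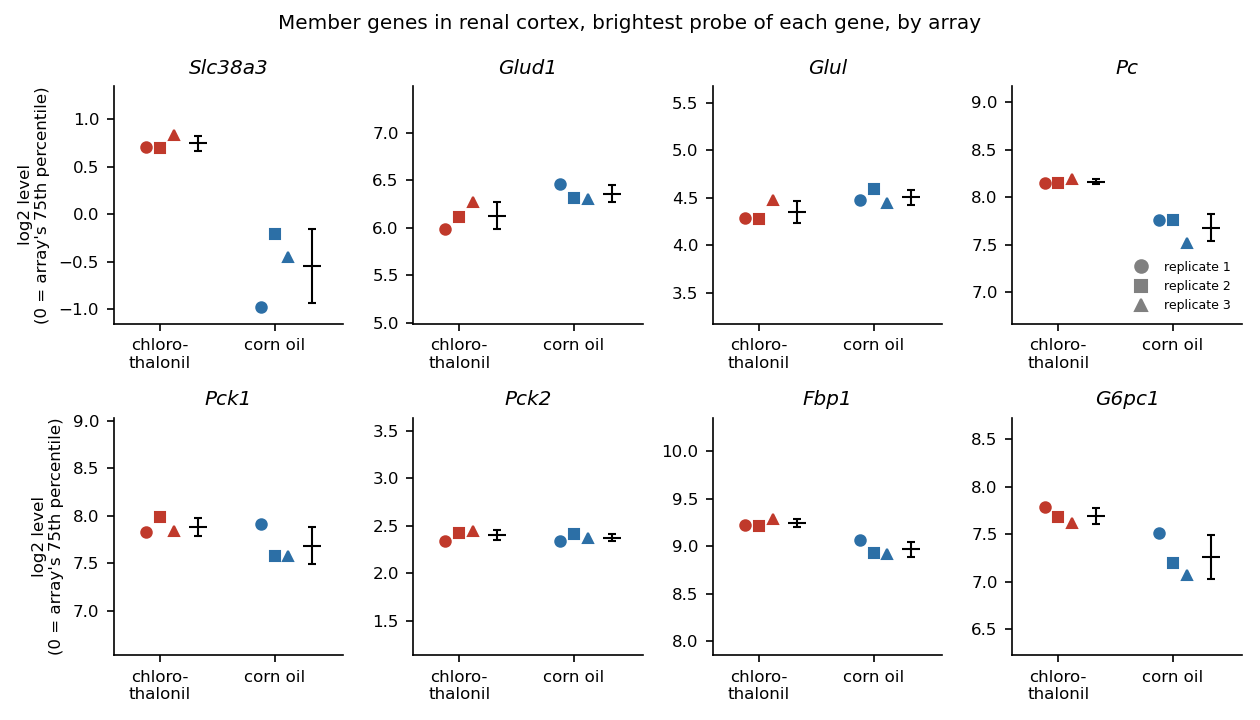
Log2 level of each member gene on its brightest probe (vertical axis, 0 being the array's 75th percentile), with chlorothalonil (red) left of corn oil (blue), 1 marker per animal and the group mean ± SD in black (n = 3 each). The groups are apart for Slc38a3, Pc, Fbp1 and G6pc1 with chlorothalonil above, and for Glud1 with chlorothalonil below.

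Slc38a3 encodes SNAT3 (also SN1), a sodium-coupled carrier of glutamine, histidine and asparagine that sits on the basolateral side of proximal tubule cells, mainly in the S3 segment. Its level was 1.63, 1.62 and 1.78 in the chlorothalonil cortices, against 0.507, 0.863 and 0.733 in the corn oil cortices. All chlorothalonil animals lay close together and well above every corn oil animal, and corn oil replicate 1 was the lowest.

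The group means of log2 level for Slc38a3 were 0.74 ± 0.075 with chlorothalonil and -0.55 ± 0.39 with corn oil (SD, n = 3 each). The difference was 1.29 ± 0.20 (SE, 95% confidence interval 0.80 to 1.78; limma adjusted p = 0.0346), which is 2.45-fold with an interval of 1.75 to 3.43. Slc38a3 ranked 604 among all features by p. It had 1 probe on the array, so no other probe stands beside this value. Without corn oil replicate 1 the difference was 1.07 (adjusted p = 0.0333), and without chlorothalonil replicate 3 it was 1.25 (adjusted p = 0.115). The call was also lost without chlorothalonil replicate 1 (1.31, adjusted p = 0.111), chlorothalonil replicate 2 (1.31, adjusted p = 0.117) or corn oil replicate 3 (1.34, adjusted p = 0.0939), and it held without corn oil replicate 2 (1.46, adjusted p = 0.0459). None of the 7 S3 markers passed, their median difference was 0.06, and their summed level was 475 to 624 in the chlorothalonil and 487 to 515 in the corn oil cortices. That sum was mostly Acy3 and Slc3a1. In whole cortex, more or fewer cells of a type and more or less RNA per cell cannot be told apart.

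Glud1 encodes glutamate dehydrogenase, the mitochondrial enzyme that frees ammonia from glutamate and passes its carbon to the citric acid cycle. The brightest Glud1 probe had a level of 63.4, 69.2 and 77.2 in the chlorothalonil cortices, against 87.8, 79.6 and 78.8 in the corn oil cortices. Every chlorothalonil animal lay below every corn oil animal, though the nearest ones almost touched. The difference of -0.23 ± 0.096 (SE, interval -0.47 to 0.003) did not pass (limma adjusted p = 0.261).

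The second Glud1 probe read 33.2, 35.6 and 37.0 with chlorothalonil, against 44.7, 37.6 and 38.7 with corn oil, a difference of -0.19 with no overlap. The third read 26.4, 28.2 and 29.3 with chlorothalonil, against 34.9, 27.8 and 29.8 with corn oil, a difference of -0.14 with overlap. On all 3 probes corn oil replicate 1 was the highest sample, and without it the brightest probe gave -0.18 (adjusted p = 0.429).

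Glul encodes glutamine synthetase, which consumes ammonia and glutamate. Its brightest probe had a level of 19.6, 19.4 and 22.3 in the chlorothalonil cortices, against 22.3, 24.1 and 21.8 in the corn oil cortices, and the groups overlapped. The difference was -0.16 ± 0.085 (SE, interval -0.37 to 0.05; limma adjusted p = 0.378). The second probe read 15.7, 14.8 and 17.2 with chlorothalonil, against 13.7, 16.2 and 15.2 with corn oil, a difference of 0.08, so the probes of this gene differed in sign.

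Pc encodes pyruvate carboxylase, the mitochondrial enzyme that turns pyruvate into oxaloacetate and so opens the route from lactate to glucose and refills the citric acid cycle. Its brightest probe had a level of 283.4, 283.5 and 293.5 in the chlorothalonil cortices, against 216, 217 and 183 in the corn oil cortices. The chlorothalonil animals were nearly alike and all lay above the corn oil animals, of which replicate 3 was the lowest. The group means of log2 level were 8.16 ± 0.029 with chlorothalonil and 7.68 ± 0.14 with corn oil (SD, n = 3 each).

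The Pc difference was 0.48 ± 0.087 (SE, interval 0.27 to 0.70; limma adjusted p = 0.0491), a 1.40-fold rise with an interval of 1.21 to 1.62, and it ranked 969 by p among the 980 features that passed. The dimmer Pc probe read 86.4, 84.3 and 78.3 with chlorothalonil, against 69.6, 66.7 and 53.9 with corn oil. Its groups were also apart, with a difference of 0.40 that did not pass among probes tested singly (adjusted p = 0.149). In that test over 39862 probes, in which 2.67% passed, the brightest Pc probe had an adjusted p of 0.0526. Quantile normalization of the arrays gave 0.27 for Pc (adjusted p = 0.105), and leaving out any 1 array gave 0.40 to 0.53 with adjusted p-values of 0.0881 to 0.147. Among these, the value was 0.47 (adjusted p = 0.139) without chlorothalonil replicate 3 and 0.52 (adjusted p = 0.097) without corn oil replicate 1.

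Pck1 encodes the cytosolic phosphoenolpyruvate carboxykinase, the step that commits oxaloacetate to glucose and is switched on in the kidney by acidosis, cAMP and glucocorticoids. Its brightest probe had a level of 227, 254 and 229 in the chlorothalonil cortices, against 241, 190.5 and 191 in the corn oil cortices. The groups overlapped because corn oil replicate 1 lay among the chlorothalonil animals. The difference was 0.19 ± 0.115 (SE, interval -0.09 to 0.48; limma adjusted p = 0.413). 

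The second Pck1 probe read 141, 154 and 137 with chlorothalonil, against 149.6, 115 and 116 with corn oil, again with corn oil replicate 1 among the chlorothalonil animals. Without that replicate the brightest Pck1 probe gave 0.31 (adjusted p = 0.175). After quantile normalization its value was -0.019.

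Pck2 encodes the mitochondrial form of the same enzyme. The brightest Pck2 probe had a level of 5.06, 5.37 and 5.43 in the chlorothalonil cortices, against 5.06, 5.31 and 5.17 in the corn oil cortices. The groups overlapped on this probe and on the 2 dimmer ones, and the differences of the 3 probes were 0.03, -0.04 and 0.005. The interval of the brightest was -0.12 to 0.18 (limma adjusted p = 0.838), the narrowest of the 8 genes.

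Fbp1 encodes fructose-1,6-bisphosphatase, an irreversible step of glucose making. On the brightest Fbp1 probe the level was 599, 592 and 625 in the chlorothalonil cortices, against 534, 486 and 485 in the corn oil cortices. The groups were apart, but the difference of 0.27 ± 0.069 (SE, interval 0.10 to 0.44) did not pass (limma adjusted p = 0.114).

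The dimmer Fbp1 probe read 105.6, 111.4 and 106.7 with chlorothalonil, against 84.8, 79.4 and 77.6 with corn oil. All chlorothalonil animals were clearly higher, and this probe passed among the 39862 probes tested singly (0.42 ± 0.066, SE; limma adjusted p = 0.0396). Without chlorothalonil replicate 3, 0 of the members' probes passed. After quantile normalization the dimmer Fbp1 probe gave 0.36 (adjusted p = 0.0588) and the brightest gave 0.015 (adjusted p = 0.91). The size of the Fbp1 difference thus depended on the probe and on the scaling.

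G6pc1 encodes the catalytic subunit of glucose-6-phosphatase, which releases free glucose in the last step. On the brightest G6pc1 probe the level was 220.7, 204.5 and 196 in the chlorothalonil cortices, against 183, 147 and 134 in the corn oil cortices. The groups were apart, with corn oil replicate 1 the highest of its group. The difference was 0.43 ± 0.129 (SE, interval 0.11 to 0.75; limma adjusted p = 0.154).

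The dimmer G6pc1 probe read 26.4, 23.5 and 21.2 with chlorothalonil, against 20.9, 15.8 and 13.95 with corn oil, a difference of 0.50 (adjusted p = 0.195), with no overlap. Without corn oil replicate 1 the brightest probe gave 0.56 (adjusted p = 0.0734). Fbp1 and G6pc1 thus had all chlorothalonil samples above all corn oil samples on each of their probes, as did Pc. Pck1 did not, through corn oil replicate 1. Groups that do not overlap were seen for 27.6% of all features, and the contrast with Pck1 was not tested.

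**Figure D2:**
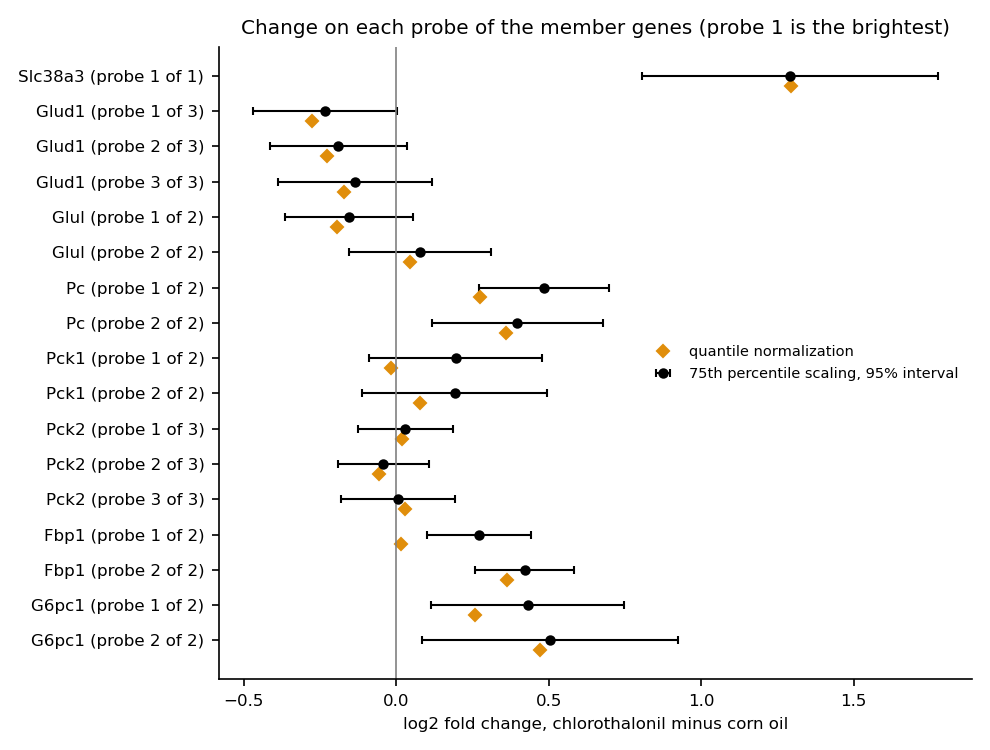
Log2 difference, chlorothalonil minus corn oil, on each of the 17 probes of the 8 genes, as black points with the 95% confidence interval from limma (n = 3 animals a group) and, as orange diamonds, after quantile normalization. Slc38a3 at 1.29 lies far right of the others, whose black points run from -0.23 to 0.50, and the diamonds of the brightest Pck1 and Fbp1 probes lie near 0.

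The promoters of Pck1 and G6pc1 are shown because these genes are hormone-regulated gates of the route. Neither gene passed, and the difference between them was not tested. The genes that passed, Slc38a3 and Pc, had no promoter entry. The letters are RefSeq's for rat assembly GRCr8, the 250 bases before each annotated start on the plus strand, at chr3:182348322-182348571 for Pck1 and chr10:86807409-86807658 for G6pc1. Capitals mark matches to a motif.
Pck1: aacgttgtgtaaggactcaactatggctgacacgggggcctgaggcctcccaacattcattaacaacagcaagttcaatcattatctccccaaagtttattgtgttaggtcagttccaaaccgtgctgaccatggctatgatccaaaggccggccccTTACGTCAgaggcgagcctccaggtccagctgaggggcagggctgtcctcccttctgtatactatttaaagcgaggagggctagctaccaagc
G6pc1: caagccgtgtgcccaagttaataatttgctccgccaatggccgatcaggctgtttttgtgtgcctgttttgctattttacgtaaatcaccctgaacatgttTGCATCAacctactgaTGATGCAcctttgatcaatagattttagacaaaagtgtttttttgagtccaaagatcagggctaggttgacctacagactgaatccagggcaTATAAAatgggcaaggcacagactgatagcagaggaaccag
The capitals in Pck1 are TTACGTCA, the cAMP response element of this promoter, which begins 93 bases before the start and is found in 0.75% of the 33469 promoters of the table. In G6pc1 they are TATAAA, 41 bases before the start and in 12.9% of promoters, and TGCATCA, 149 bases before the start and, on the other strand, 133 before it, in 2.50% of promoters. Both strands were searched, also for TGACGTCA, in 1.59% of promoters, and for TGACNNNGC, in 10.1%. Among the members with an entry, TGACGTCA had no match, and TGACNNNGC matched only Fbp1, on the other strand, 71 bases before the start. A match is a description of the letters and shows no binding.

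Pc, Pck1, G6pc1 and Fbp1 were among the brightest features of the arrays: 0.428%, 0.534%, 0.736% and 0.0289% of features had a higher mean level. Bright features as a class were slightly higher in the chlorothalonil group. Of the 268 features with a mean log2 level of 7 to 8, the class of Pc, Pck1 and G6pc1, 80.2% were above 0, with a median of 0.09. Of the 114 above 8, the class of Fbp1, 93.0% were above 0, with a median of 0.18. After quantile normalization the medians of these classes were -0.055 and -0.052. With cyclic loess, another scaling added after seeing the data, they were 0.036 and 0.11. Slc38a3 lay in a class of 5683 features of moderate level with a median of 0.0028, and its difference was 1.30 after quantile normalization (adjusted p = 0.0358). How much of the differences of the bright genes goes with their brightness was not tested.

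**Figure D3:**
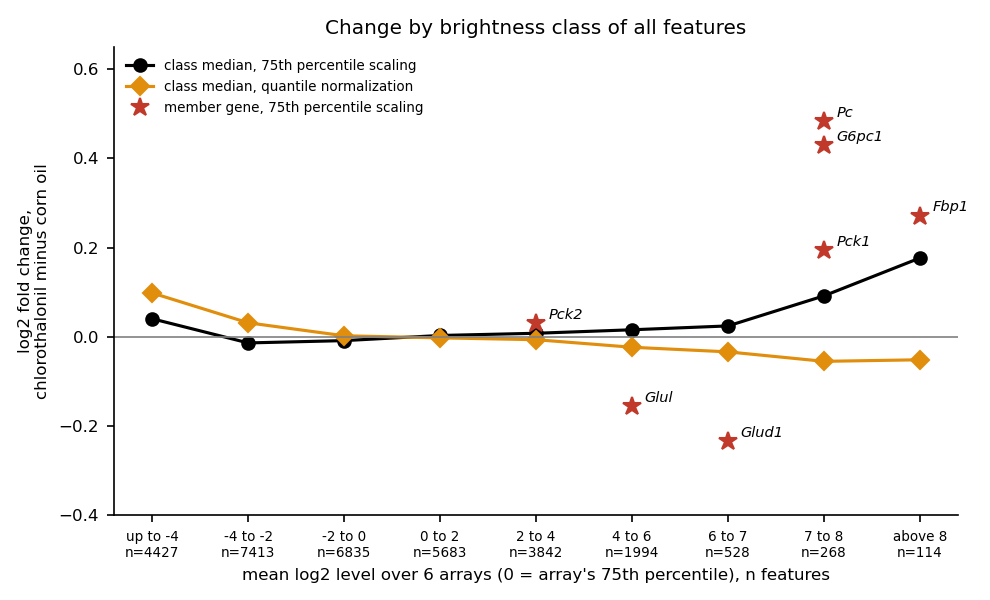
Log2 difference, chlorothalonil minus corn oil, as the median of all features in each class of mean log2 level over the 6 arrays, with 75th percentile scaling (black) and quantile normalization (orange), and with the members as red stars in their class. The black line leaves 0 at the bright end, where Pc, Pck1, G6pc1 and Fbp1 lie; Slc38a3, at 1.29, is above the axis and not drawn.

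Around the 8 genes, 7 lists of related genes held 166 measured genes that are not members. Of these, 2 were higher and 2 were lower, 2.41% in all, against 2.14% of features with a symbol, and their median difference was 0.040. This share is close to that of all named genes. Genes are named from those that passed or, where none did, from the smallest p of a list.

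Glutamine and glutamate handling held 23 measured genes, of which 0 were higher, 1 was lower, and the median was -0.046. The gene that fell was Slc38a2, which encodes SNAT2, a broad carrier of small neutral amino acids that cells deprived of amino acids induce. Its level was 2.67, 2.29 and 2.40 in the chlorothalonil cortices, against 3.41, 3.84 and 3.67 in the corn oil cortices. All chlorothalonil animals lay below the corn oil animals, and the difference was -0.57 ± 0.087 (SE; limma adjusted p = 0.0344), opposite in sign to that of Slc38a3. Its 2 probes gave -0.57 and -0.34.

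None of the 19 measured genes of ammonia transport and acid-base passed, and their median was -0.029. The smallest p was that of Slc4a7, the electroneutral sodium bicarbonate cotransporter NBCn1. Its level was 0.082, 0.066 and 0.068 with chlorothalonil, against 0.044, 0.049 and 0.051 with corn oil, near the dim end of the array. The groups were apart, and the difference of 0.59 ± 0.11 (SE) did not pass (limma adjusted p = 0.0545). It was 0.65 after quantile normalization (adjusted p = 0.0368) and 0.15 with normexp background correction (adjusted p = 0.251), and leaving out any 1 array gave adjusted p-values of 0.114 to 0.135.

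Reversible and shared steps of glucose making held 22 measured genes, with 2 higher, 1 lower and a median of 0.074. Slc2a1, the glucose carrier GLUT1, had a level of 3.51, 3.54 and 3.98 with chlorothalonil, against 2.58, 2.59 and 2.75 with corn oil, a rise of 0.47 ± 0.077 (SE; limma adjusted p = 0.0394). All chlorothalonil animals were higher than all corn oil animals.

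Ldha encodes the lactate dehydrogenase subunit that prevails in glycolytic tissue. Its level was 46.5, 43.6 and 44.4 with chlorothalonil, against 59.9, 73.9 and 62.3 with corn oil, with no overlap. It fell by 0.54 ± 0.097 on the log2 scale (SE; limma adjusted p = 0.0491), and its 2 probes gave -0.56 and -0.54. Slc38a2, Slc2a1 and Ldha each lost their call when any 1 of the 6 arrays was left out, and none of their directions turned.

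No gene passed in the other lists. Among 24 carriers and enzymes of gluconeogenic substrates the median was 0.065, and Slc13a3, the basolateral carrier of dicarboxylates such as alpha-ketoglutarate, had 490, 483 and 499 with chlorothalonil, against 398, 397 and 373 with corn oil (0.34 ± 0.061, SE; limma adjusted p = 0.0508). After quantile normalization it was 0.11 (adjusted p = 0.322). Among 18 citric acid cycle genes 15 were above 0 and 3 below, with a median of 0.087. Most of these genes had a mean log2 level of 4 to 8, where 54.8% to 80.2% of all features, by class, were above 0. The sign count was not tested against those shares.

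Among 22 genes of glycolysis and pyruvate oxidation the median was 0.036, and Pfkfb1, an enzyme that sets the fructose 2,6-bisphosphate level, gave 0.46 ± 0.165 (SE; limma adjusted p = 0.205) on its brightest probe and 0.03 on its other probe. Without corn oil replicate 1 the first value was 0.28, and with normexp it was 0.19. Among 38 regulators the median was -0.013, and Ppargc1b, a coactivator of mitochondrial genes, had 1.20, 1.23 and 1.11 with chlorothalonil, against 0.940, 0.935 and 0.985 with corn oil (0.31 ± 0.069, SE; adjusted p = 0.0854). The groups of Slc13a3 and Ppargc1b did not overlap.

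**Figure D4:**
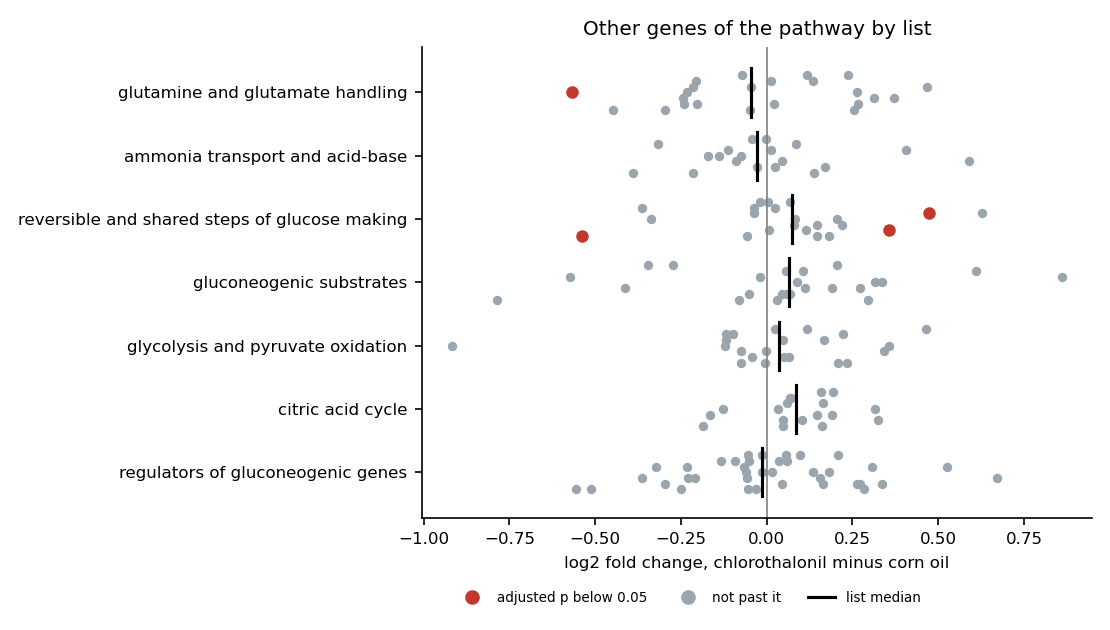
Log2 difference, chlorothalonil minus corn oil, of each measured gene of the 7 related lists, 1 point per gene, with the list median as a black bar and genes past the adjusted p of 0.05 in red (limma, n = 3 animals a group). The list medians lie between -0.046 and 0.087, and 4 of 166 genes passed.

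Markers of the other cell types that cortex can hold were read beside these values. Of the 19 proximal tubule markers, 1 passed: Slc17a3, an organic anion and phosphate transporter of the apical membrane, had a level of 49.7, 38.7 and 38.5 with chlorothalonil, against 18.8, 18.6 and 15.2 with corn oil (1.27 ± 0.14, SE; limma adjusted p = 0.015). It passed without corn oil replicate 1 (adjusted p = 0.0453) and missed the threshold without any other single array, with adjusted p-values of 0.0519 to 0.061. The median of that list was 0.12, with 12 markers above 0 and 7 below. None passed among 8 markers of the loop of Henle and distal tubule (median 0.094) or 10 of the collecting duct (median 0.038). Nor did any of 9 markers of podocytes and endothelium (median 0.028), 7 of immune cells (median -0.082) or 5 of red blood cells (median 0.27).

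The summed red blood cell level was 567 to 613 in the chlorothalonil and 482 to 502 in the corn oil cortices. All 5 red blood cell markers were above 0 with an unadjusted limma p under 0.05, which 6096 of 31104 features had. Among them, Slc4a1 was also on the collecting duct list. None of 6 liver markers passed, and their summed level of 2.91 to 9.09 in the chlorothalonil and 0.695 to 7.66 in the corn oil cortices was lowest in corn oil replicate 1. None passed among 8 fat markers (6.35 to 6.59 with chlorothalonil, 5.62 to 6.72 with corn oil) or 3 adrenal markers (1.05 to 1.30 with chlorothalonil, 0.769 to 1.23 with corn oil). The defining adrenal genes Cyp11b1, Cyp11b2 and Star were not well above background on all arrays of either group. The part of cell makeup in the member differences was not tested.

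The genes whose log2 levels followed Slc38a3 most closely over the 6 arrays, among 11314 named features, were Mras, Ngly1 and Reep4, with Pearson's r of 0.998, 0.996 and 0.994. For Pc they were Dlst, Dtd2 and Ldah, with 0.996, 0.996 and 0.994. Dlst encodes a subunit of the alpha-ketoglutarate dehydrogenase complex, and Ldah a lipid droplet-associated hydrolase. Of these 6 genes, Ldah also passed, with a difference of 0.46 (limma adjusted p = 0.0358). The 6 points share the split into 2 slides, so these r values describe the arrays and carry no test.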

How the data were processed

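RNA of renal cortex from 6 rats was measured on 6 Agilent 1-colour arrays. The authors deposited the scanner's spot intensity, extracted with Agilent Feature Extraction, version 10.7 per the submitters' processing notes; per the file headers its background was subtracted within each array, with no scaling between arrays. A second deposited table holds a ratio, that intensity over 1 constant per array, found here to be close to the 75th percentile. Its column medians were 0.105, 0.105 and 0.106 for chlorothalonil and 0.107, 0.109 and 0.112 for corn oil, replicates 1 to 3, so it was not centred; no label states the scaling.

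Here log2 intensity minus each array's 75th percentile over non-control probes was used. A probe entered the tests if either group had it well above background on its 3 arrays, and if each group had at least 2 arrays without an outlier mark, which 39862 of 61537 did. Accessions matched 1 RefSeq symbol of assembly GRCr8 for 28193 probes; 33344 kept their own identifier. The brightest probe stood for a gene.

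The comparison used lmFit and eBayes of limma 3.58.1 (R 4.3.3) without covariates (Benjamini-Hochberg over all 31104 features or all 39862 probes), which was tested on simulated data. The number of arrays limits the precision. The members, the lists and the tests were chosen with earlier results of these data known. Named genes were all members, up to 4 genes past the threshold of each pathway list (or the smallest p), marker genes past the threshold, and for each member past the threshold the 3 genes of highest Pearson's r; some genes it names are not reported here. Alternatives were quantile and array-median scaling, the deposited table, normexp with an offset of 50, 2 other probe filters, the mean of probes, a trended robust variance prior, a replicate block, leaving out each array and, added after seeing the data, cyclic loess. The files hold no mean spot signal, so normexp used the median.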

Additional observations from a re-analysis of the deposited data

How the results depend on the processing

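Over all 31104 features, 980 passed in limma, 400 higher and 580 lower; scaling to the array median gave 456 higher and 403 lower, no filter on dim probes left 159 in all, and leaving out 1 array left 136 to 412. Of the 8 members 2 passed, against 1 with quantile normalization, array-median scaling, the deposited table or the mean of probes, 0 with no filter (4 unadjusted), and 0 to 1 with 1 array left out; 3 to 6 members then had an unadjusted p under 0.05. Normexp and the trended robust prior gave 3, adding Fbp1, while calls over all features rose to 1377 and 1400. Cyclic loess, added after seeing the data, gave 2 of 8 and 986 features. Of the members' probes 2 passed, against 1 with quantile normalization, 4 with normexp, 4 with the trended robust prior, 0 with no filter and 0 to 1 with 1 array left out. Of the 166 pathway genes 4 passed, against 7 with normexp and 8 with the trended robust prior, where 1377 and 1400 of all features passed. With no filter 0 passed (32 unadjusted), and with any 1 array left out 0 passed (23 to 37 unadjusted). Of all features, 6503 of 48982 had an unadjusted p under 0.05 with no filter. With 1 array left out, 4825 to 5638 of 31104 had one. Slc38a3 gave 1.29 with no filter (adjusted p = 0.092) and 1.07 to 1.46 with 1 array left out. Over 16 alternatives its adjusted p ran from 0.0184 to 0.117 and passed in 10. Among these, the mean of probes, the deposited table and the stricter filter nearly repeat the main fit for this gene. The call was lost with no filter, with the replicate block, and without corn oil replicate 3 or any single chlorothalonil replicate. Pc passed in 4 of 16, with limma adjusted p-values from 0.0154 to 0.154. The 4 were normexp (0.55, adjusted p = 0.0236), the stricter filter (0.48, 0.0411), cyclic loess (0.42, 0.0387) and the trended robust prior (0.48, 0.0154). Pc did not pass with quantile normalization (0.27), array-median scaling (0.54, 0.056), the deposited table (0.49, 0.0504) or no filter (0.48, 0.137). Nor did it pass with the mean of probes (0.44, 0.0849) or with 1 array left out (0.40 to 0.53). Pck1 turned to -0.019 with quantile normalization, and Pck2 to -0.0563 with normexp and -0.00269 with the mean of probes; neither passed anywhere, nor did Glud1, Glul or G6pc1, which kept their signs. Fbp1 passed with normexp (0.30, adjusted p = 0.0443) and with the trended robust prior (0.27, adjusted p = 0.0363). Fewer arrays or more dim probes tested are part of how those alternatives are built; the cause of the other changes was not tested. No scaling moved the median of all features by over 0.1 on the log2 scale.

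Same-numbered samples correlated at 0.094, 0.021 and 0.049 in their deviations from the group means, and different-numbered samples at -0.079 to 0.043. These few values do not settle whether the replicate numbers pair the animals. With the replicate block, limma called 0 features (5572 at an unadjusted p under 0.05), 0 of 8 members (4 unadjusted), 0 of the members' probes and 0 of the pathway genes (34 unadjusted); Slc38a3 gave 1.29 (adjusted p = 0.106) and Pc 0.48 (adjusted p = 0.154). The planned slide block could not be fitted, since each slide held 1 group.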
